A study of Mus musculus with 18 samples.

Results

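Podocytes, the cells that wrap the capillaries of the glomerulus, were followed here through 9 of their genes: Nphs1, Magi2, Podxl, Ptpro, Thsd7a, Synpo, Clic5, Wt1 and Cdkn1c. They were taken as a named set of podocyte genes out of the 32285 genes of the deposited count table, by matching each Ensembl identifier to its mouse symbol, and all 9 had enough counts to be tested. The tissue was cut by microdissection from frozen kidneys of male C57BL/6 mice of the iKspCre-Pkd1del model, in which a kidney-specific Cre, bred to homozygosity and switched on by tamoxifen, deletes exons 2 to 11 of Pkd1. Pkd1 encodes polycystin-1, and its loss leads to polycystic kidney disease. Tamoxifen was given by mouth at 12.5 mg/kg on postnatal days 18 and 19, and kidneys were collected in the mild cystic phase as judged by magnetic resonance imaging. The 3 region types compared were cystic tissue with high F4/80, cystic tissue with low F4/80, and non-cystic tissue. Macrophages carry F4/80, the product of Adgre1, on their surface. There were 6 libraries per region type, 2 from each of 3 kidneys, and the pair is labelled as biological replicates 1 and 2. All 18 libraries, the non-cystic ones included, carry the Pkd1 deletion, so no region stands for a healthy kidney. The labelled age is 269 for kidneys 1 and 3 and 297 for kidney 2, with no unit, and the labels do not say whether the kidneys came from separate mice.

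A podocyte sends out foot processes that interlock around the capillary, and the gap between neighbouring foot processes is bridged by the slit diaphragm, a cell junction through which the blood is filtered. The foot processes are held open by a negatively charged coat on the upper membrane and by an actin skeleton, and they sit on the glomerular basement membrane. Glomeruli lie in the renal cortex and make up a small part of it, and each is a compact tuft of podocytes, endothelial cells and mesangial cells. Ksp-cadherin, whose promoter drives Cre in this kind of model, is known as an adhesion protein of kidney tubules rather than of podocytes.

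Library totals were 5841975 to 8662288 counts in F4/80-high, 7186518 to 9188813 in F4/80-low and 5366651 to 9002054 in non-cystic tissue. Pkd1 itself was at 4.96 to 14.3 CPM in F4/80-high, 4.77 to 11.0 CPM in F4/80-low and 4.26 to 9.66 CPM in non-cystic libraries. CPM are counts scaled to library size with trimmed-mean-of-M-values factors. Since every library carries the deletion, this level does not check the labels. The summed level of 6 macrophage genes including Adgre1 was 585.7 to 1141 CPM in F4/80-high, 80.7 to 255.3 CPM in F4/80-low and 37.1 to 66.3 CPM in non-cystic libraries. The 3 ranges of macrophage genes did not overlap, and F4/80-high lay above F4/80-low tissue, the order that their labels give. Non-cystic tissue was lowest, and its label gives no F4/80 level.

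In the mouse assembly GRCm38, the slit diaphragm gene Nphs1 (nephrin, ENSMUSG00000006649) lies on chromosome 7 from 30458315 to 30487223. Its scaffold partner Magi2 (ENSMUSG00000040003) lies on chromosome 5 from 19227036 to 20704792. The gene of the coat protein podocalyxin, Podxl (ENSMUSG00000025608), lies on chromosome 6 from 31519488 to 31563981. Chromosome 6 also holds Ptpro (ENSMUSG00000030223), from 137252319 to 137463233, and Thsd7a (ENSMUSG00000032625), from 12311610 to 12749410. Wt1 (ENSMUSG00000016458) lies on chromosome 2 from 105126529 to 105173616, Clic5 (ENSMUSG00000023959) on chromosome 17 from 44188584 to 44280172 and Cdkn1c (ENSMUSG00000037664) on chromosome 7 from 143458339 to 143461050. Synpo is ENSMUSG00000043079. Values are sums over all annotated exons of a gene. Strand was not kept by the library kit, which makes 2 members less certain: 780 exon bases of Nphs1 are shared with opposite-strand genes, among them Nphs1os, and 625 exon bases of Cdkn1c with Gm44732. For Magi2, 203 bases are shared with Gm29254 on the same strand.

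Because the members largely varied together between libraries, the promoters of members with different roles are shown. RefSeq (GRCm38.p6) windows of 250 bases before to 50 bases after an annotated start were used for 5 of the 9 members. There were 6 windows in all, with none used for Podxl, Synpo, Wt1 and Cdkn1c. A script searched both strands of each window for GTGGGAG, a core of the site bound by WT1, and for TAATTA, a homeodomain core bound by LMX1B, another podocyte regulator, whose reverse complement is itself. Capitals mark a match. The Nphs1 window is chr7:30459808-30460107, the Ptpro window chr6:137252049-137252348 and the window at a start inside Magi2 chr5:19907268-19907567, all on the plus strand. The RefSeq start of Nphs1 lies inside the gene span given above.
Nphs1: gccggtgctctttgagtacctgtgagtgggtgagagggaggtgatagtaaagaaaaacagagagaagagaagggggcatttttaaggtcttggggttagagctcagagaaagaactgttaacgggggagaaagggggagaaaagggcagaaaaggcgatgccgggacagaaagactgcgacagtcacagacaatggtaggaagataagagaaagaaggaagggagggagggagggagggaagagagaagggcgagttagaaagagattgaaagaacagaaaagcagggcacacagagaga
Ptpro: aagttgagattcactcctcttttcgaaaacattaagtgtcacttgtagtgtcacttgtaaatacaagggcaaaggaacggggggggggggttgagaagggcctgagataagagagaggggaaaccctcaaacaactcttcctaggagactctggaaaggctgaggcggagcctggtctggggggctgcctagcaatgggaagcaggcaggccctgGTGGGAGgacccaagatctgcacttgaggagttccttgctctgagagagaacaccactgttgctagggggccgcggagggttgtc
Magi2, start inside the gene: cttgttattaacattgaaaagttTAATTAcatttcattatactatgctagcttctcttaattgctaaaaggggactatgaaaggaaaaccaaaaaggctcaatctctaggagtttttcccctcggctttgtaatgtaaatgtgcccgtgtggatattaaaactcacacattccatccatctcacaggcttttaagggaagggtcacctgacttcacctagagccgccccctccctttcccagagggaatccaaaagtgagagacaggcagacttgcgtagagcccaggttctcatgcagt
GTGGGAG was present in the Ptpro window among the 6, and in 9.73% of 32851 RefSeq promoter windows of the same length. TAATTA was present in this Magi2 window, and in 5.29% of all windows. The Nphs1 window held neither string, which says only that these letters are not in it. The matches describe the letters and were not tied to binding of any factor.

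The slit diaphragm gene Nphs1 was close to absent in some libraries and clearly present in others. Nephrin, its product, is the adhesion protein that spans the slit. Nphs1 had 0.11, 6.84 and 44.3 CPM (lowest, median and highest of 6 libraries) in F4/80-high tissue, 0.149, 10.8 and 29.2 CPM in F4/80-low tissue and 0.167, 4.93 and 18.6 CPM in non-cystic tissue. The 3 ranges overlapped almost wholly. The lowest library of each region type rested on 1 count, with exact 95% Poisson limits of 0.00278 to 0.611 CPM in F4/80-high, 0.00377 to 0.831 CPM in F4/80-low and 0.00423 to 0.931 CPM in non-cystic tissue. These intervals cover counting error only. Magi2, a scaffold protein that anchors nephrin at the slit, had 5.82, 15.7 and 30.1 CPM in F4/80-high, 2.24, 10.6 and 23.0 CPM in F4/80-low and 5.35, 8.31 and 26.9 CPM in non-cystic libraries. Its ranges overlapped widely between regions, and every library held Magi2 counts.

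Podocalyxin, encoded by Podxl, is the charged sialomucin of the podocyte surface and is also made by endothelial cells. Podxl had 16.6, 45.5 and 243.3 CPM in F4/80-high libraries, 15.4, 58.3 and 132.3 CPM in F4/80-low and 15.2, 29.2 and 65.0 CPM in non-cystic libraries. Its lowest library was nearly the same in all 3 region types, so the regions differed at the upper end. Ptpro, a receptor-type tyrosine phosphatase of the same surface, had 4.28, 16.4 and 61.3 CPM in F4/80-high, 1.19, 11.1 and 28.0 CPM in F4/80-low and 0.669, 4.90 and 18.2 CPM in non-cystic libraries. Thsd7a, a membrane protein of the podocyte base known as an autoantigen in human membranous nephropathy, had 6.15, 14.8 and 50.8 CPM in F4/80-high, 2.04, 14.6 and 36.4 CPM in F4/80-low and 0.669, 5.77 and 29.3 CPM in non-cystic libraries. Lowest, median and highest values of Ptpro and Thsd7a were all greatest in F4/80-high tissue, and the ranges still overlapped.

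Among the genes of the actin skeleton, Synpo and Clic5 behaved differently. Synpo, whose product synaptopodin bundles actin in foot processes, had 20.5, 36.9 and 128.1 CPM in F4/80-high, 5.22, 30.7 and 56.5 CPM in F4/80-low and 1.34, 11.0 and 26.0 CPM in non-cystic libraries. Only the top non-cystic library passed the lowest F4/80-high one. Clic5, which links the membrane to ezrin and actin, had 18.7, 29.0 and 61.0 CPM in F4/80-high, 26.2, 41.2 and 58.1 CPM in F4/80-low and 24.6, 40.8 and 51.4 CPM in non-cystic libraries. It was the narrowest of the 9, with a highest library 3.26 times the lowest in F4/80-high, 2.22 times in F4/80-low and 2.09 times in non-cystic tissue.

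The nuclear regulators were low in many libraries. Wt1, the transcription factor that keeps podocytes differentiated, had 1.32, 8.79 and 25.3 CPM in F4/80-high, 0, 5.55 and 13.6 CPM in F4/80-low and 0, 1.37 and 9.17 CPM in non-cystic libraries. It had no count in 3 of the 18 libraries, 1 F4/80-low and 2 non-cystic, where a count of 0 allows up to 0.437, 0.502 and 0.515 CPM (3 counts, a one-sided limit). Cdkn1c, which encodes the cell cycle inhibitor p57 that marks resting podocytes, had 2.52, 10.8 and 72.2 CPM in F4/80-high, 0.894, 10.7 and 25.1 CPM in F4/80-low and 0.669, 5.04 and 12.0 CPM in non-cystic libraries. Cdkn1c was counted in all 18 libraries, and Wt1 in 15, among them all 6 F4/80-high ones. In bulk tissue, fewer podocytes and less of a transcript per podocyte cannot be told apart.

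Set per kilobase of exon, Podxl was the most abundant member, with 15.3 CPM per kilobase in F4/80-high, 12.8 in F4/80-low and 6.87 in non-cystic tissue as a mean over kidneys. Cdkn1c came second on that scale in F4/80-high, with 10.6 CPM per kilobase, and in F4/80-low, with 5.86. Clic5, at 4.55, came second in non-cystic tissue. At the other end, Wt1 had 0.473 CPM per kilobase in non-cystic tissue and 1.03 in F4/80-low tissue, and Magi2 had 1.52 in F4/80-high tissue. In both cystic region types all 8 steps between neighbours in this order were smaller than the larger of the neighbours' 2 SDs over kidneys. In non-cystic tissue 5 of 8 steps were, and the steps from Podxl to Clic5, from Clic5 to Cdkn1c and from Cdkn1c to Synpo were larger.

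**Figure D1:**
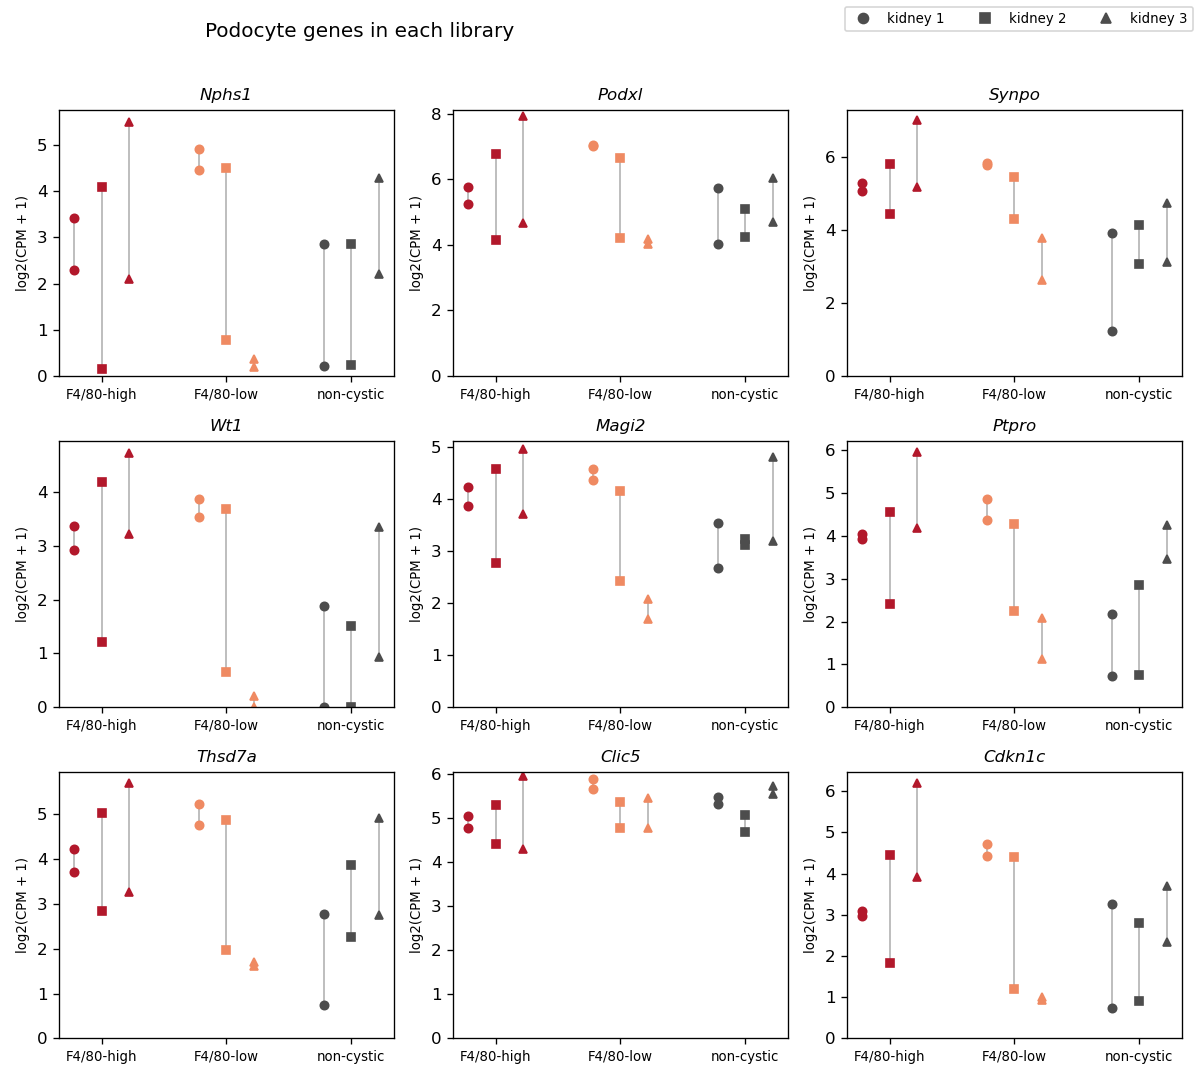
Level of each of the 9 podocyte genes in each library, as log2 of CPM plus 1, for F4/80-high (left), F4/80-low (middle) and non-cystic (right) tissue, where a grey line joins the 2 libraries of one kidney. The lines are often as long as the range of the whole group, and Clic5 is the gene with short ones.

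The 2 libraries of one kidney and region type often held very different amounts of podocyte transcript. The 9 members summed to 716.4 CPM in one library and 142.0 CPM in the other of the F4/80-high tissue of kidney 3, which is 5.05-fold. In kidney 2 the sums were 77.4 and 332.4 CPM in F4/80-high tissue and 298.6 and 76.3 CPM in F4/80-low tissue. Non-cystic pairs were 1.65-fold to 2.32-fold apart. The remaining pairs were 1.12-fold apart in F4/80-high tissue of kidney 1, and 1.08-fold and 1.06-fold in F4/80-low tissue of kidneys 1 and 3. Clic5 makes up much of the smaller sums. Without it the non-cystic pairs were 2.39-fold to 4.31-fold apart and the F4/80-low pair of kidney 3, with 39.5 and 27.4 CPM, was 1.44-fold apart. The summed transcripts of the other 8 members thus differed by 2.39-fold or more in 6 of 9 pairs that the labels call replicates.

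Across the 18 libraries, the variance of each gene's log2(CPM + 1) was split into a part between region types, a part between kidneys, their interaction and a part between paired libraries. For the median tested gene the region type took 35.3% and the paired libraries 29.2%. The paired libraries took 51.8% for Nphs1 and 55.0% for Podxl, and the region type took 3.46% for Nphs1 and 7.22% for Podxl. Synpo, at 40.3%, was the one member in which the region type took more than in the median gene, followed by Wt1 at 27.0% and Ptpro at 25.6%. The SD within pairs was 1.83 log2 units for Nphs1, above that of 99.8% of tested genes, and for the other members apart from Clic5 it was above 97.6% or more of them. Clic5 had a within-pair SD of 0.51, above 82.4% of genes.

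**Figure D2:**
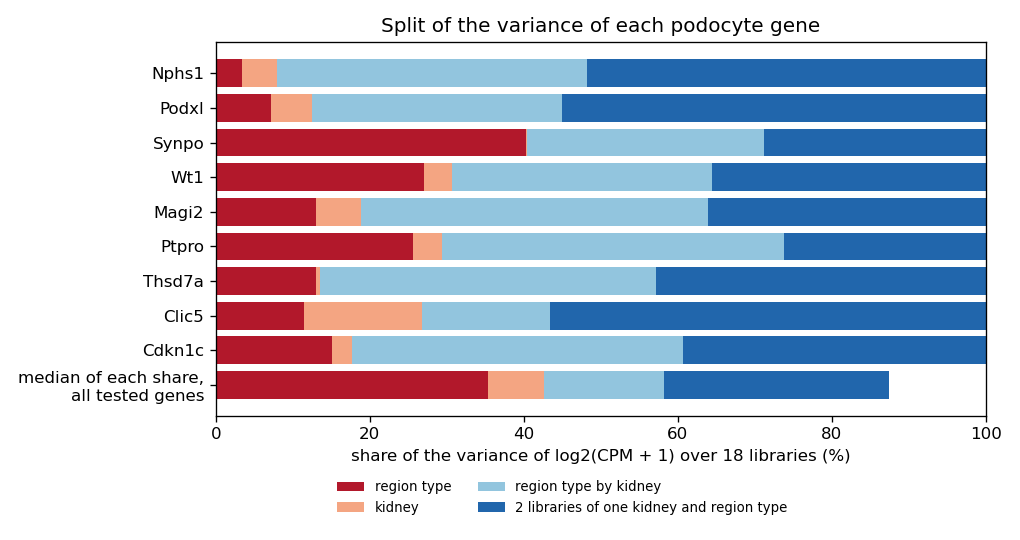
Share of the variance of log2(CPM + 1) over the 18 libraries that lies between region types, between kidneys, in their interaction and between the 2 libraries of one kidney and region type, for each member. The bottom bar holds the median of each share over all tested genes, so its parts need not add to 100; Synpo is the one member whose region share exceeds it.

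F4/80-high cystic tissue was compared with non-cystic tissue to ask whether podocyte transcripts differ where macrophages gather around cysts. Averaged over kidneys, 8 members were higher in F4/80-high tissue and Clic5 was lower, and 0 of 9 were called. A gene was called at a Benjamini-Hochberg adjusted p below 0.05 in edgeR's quasi-likelihood test on the summed counts of each kidney and region type, with the kidney as a block and all genes tested. Over all genes, 19.7% were called higher and 19.5% lower in this comparison. At an unadjusted p below 0.05, 1 member was higher and 0 were lower, against 24.3% of all genes higher at that level. Synpo alone was called by DESeq2, by edgeR on the 18 libraries as separate samples and by edgeR without the block, where 20.8%, 27.1% and 20.1% of all genes were called higher. The median log2 fold change of the members was 1.16, against 0.040 over all genes.

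Synpo had the strongest evidence. It averaged 52.7 ± 28.2 CPM in F4/80-high tissue and 13.6 ± 6.03 CPM in non-cystic tissue (SD, n = 3 kidneys each). By kidney it stood at 34.1, 38.8 and 85.1 CPM in F4/80-high tissue, against 7.78, 13.1 and 19.8 CPM in non-cystic tissue. The 2 sets of kidneys did not overlap, and the log2 fold change was 1.93 ± 0.76 (SE) with an adjusted p of 0.0969 in edgeR and 0.0444 in DESeq2. Wt1 was the other gene of the 9 whose kidneys did not overlap, which 26.8% of all genes also showed in this direction. It averaged 11.6 ± 5.07 CPM in F4/80-high and 2.93 ± 2.98 CPM in non-cystic tissue, and edgeR put the log2 fold change at 2.08 ± 1.30 with an adjusted p of 0.260.

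Ptpro averaged 23.1 ± 15.4 CPM in F4/80-high and 7.20 ± 7.21 CPM in non-cystic tissue (log2 fold change 1.75 ± 1.02, edgeR adjusted p 0.231). Cdkn1c averaged 21.6 ± 20.8 CPM in F4/80-high and 5.95 ± 2.93 CPM in non-cystic tissue (1.75 ± 1.16, edgeR adjusted p 0.285). The SD was close to the mean for Ptpro in non-cystic and for Cdkn1c in F4/80-high tissue, and neither gene was called. Podxl (1.16 ± 0.81), Nphs1 (1.00 ± 1.31), Thsd7a (0.97 ± 1.02) and Magi2 (0.49 ± 0.70) had smaller log2 fold changes, with edgeR adjusted p-values of 0.307 to 0.621. Clic5 averaged 33.0 ± 7.23 CPM in F4/80-high and 39.9 ± 10.6 CPM in non-cystic tissue, a log2 fold change of -0.25 ± 0.22 with an edgeR adjusted p of 0.405.

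Within kidneys the direction repeated in the sums of paired libraries. In F4/80-high tissue 8 of 9 members were higher in 3 of 3 kidneys, which 34% of all genes also showed. Clic5 was higher in 1 of 3. Members moved together, so 8 agreeing genes are not 8 separate results. Single libraries, summed over members, overlapped in kidneys 2 and 3. F4/80-high libraries had 77.4 and 332.4 CPM against 71.0 and 117.1 CPM in kidney 2, and 716.4 and 142.0 against 256.4 and 110.5 CPM in kidney 3. In kidney 1 they had 167.5 and 187.0 against 142.2 and 67.2 CPM. The median difference of the members in log2(CPM + 1) was 0.84 in kidney 1, 1.21 in kidney 2 and 1.32 in kidney 3. When only F4/80-high and non-cystic libraries entered the fit, so that F4/80-low tissue no longer contributed to the spread, edgeR called 7 of 9 members higher: Nphs1, Podxl, Synpo, Wt1, Ptpro, Thsd7a and Cdkn1c. That fit called 19.4% of all genes higher. It rests on fewer sums than the fit on all 9, which called 0 members, and the 7 calls are not separate results either. From the 2 region types alone edgeR put Synpo at 1.94 ± 0.20 (log2 fold change, adjusted p 0.000369), Wt1 at 2.31 ± 0.38 (adjusted p 0.00231) and Nphs1 at 1.05 ± 0.24 (adjusted p 0.0102). Magi2 (adjusted p 0.0846) and Clic5 (adjusted p 0.359) were not called there. The SEs of that fit rest on how alike the differences of 3 kidneys were. Paired libraries were summed for it, so their spread is not measured by these SEs. The SD within pairs was 1.83 log2 units for Nphs1, 1.34 for Wt1 and 1.03 for Synpo. Single libraries of kidney 3 moved the fit on all 9 sums. Without the first F4/80-high library of kidney 3, edgeR gave Nphs1 a log2 fold change of -0.37 and Podxl 0.036, and Synpo kept 1.35 with an adjusted p of 0.175. Without the first non-cystic library of kidney 3, Synpo was called at 2.49 (edgeR adjusted p 0.0409). Without kidney 3 altogether, edgeR called 6 members higher, Nphs1, Synpo, Wt1, Magi2, Ptpro and Cdkn1c, where 18.4% of all genes were called higher. Without kidney 1, or without kidney 2, edgeR called 0 members.

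F4/80-low cystic tissue was compared with non-cystic tissue, and here kidneys disagreed in direction. The members had a median log2 fold change of 1.24, against 0.0026 over all genes, and 0 of 9 were called in either direction in edgeR, where 1.51% of all genes were called higher and 0.0249% lower. At an unadjusted p below 0.05 the count was also 0, where 9.35% of all genes were higher, and DESeq2 called 0 members and 3.75% of genes higher. All 9 members were higher in F4/80-low tissue in kidneys 1 and 2, and all 9 were lower in kidney 3. The median difference in log2(CPM + 1) was 2.50 in kidney 1, 1.24 in kidney 2 and -2.38 in kidney 3.

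Nphs1 shows the reversal. Its levels by kidney were 25.4, 12.5 and 0.226 CPM in F4/80-low tissue, against 3.18, 3.80 and 13.5 CPM in non-cystic tissue. Kidney 3 held the lowest F4/80-low value and the highest non-cystic value, and the edgeR log2 fold change was 1.24 ± 1.49 (adjusted p 0.864). Wt1 followed the same pattern, with 12.2, 6.90 and 0.0752 CPM in F4/80-low tissue against 1.33, 1.10 and 6.37 CPM in non-cystic tissue. Synpo had the smallest reversal apart from Clic5, with 55.8, 32.3 and 9.18 CPM in F4/80-low tissue against 7.78, 13.1 and 19.8 CPM in non-cystic tissue, and an edgeR log2 fold change of 1.33 ± 0.80 (adjusted p 0.647). The value for Clic5 was 0.064 ± 0.22 (edgeR adjusted p 0.961). With kidney 3 left out, edgeR called 5 members higher in F4/80-low tissue, Nphs1, Synpo, Wt1, Ptpro and Cdkn1c, where 3.39% of all genes were called higher. That fit of 2 kidneys put Wt1 at 2.95 ± 0.39 (log2 fold change, adjusted p 0.00206) and Nphs1 at 2.40 ± 0.38 (adjusted p 0.00728). Kidney 3 was the only one with the opposite direction, so that fit leaves the disagreement out and its calls are no further evidence. Without kidney 1 edgeR called 0 members and put Nphs1 at -0.28. Without kidney 2 it called 0 members, with Nphs1 at 0.90.

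Between the cystic region types, F4/80-high against F4/80-low tissue, the members had a median log2 fold change of 0.50, against 0.040 over all genes. edgeR called 0 of 9, where it called 10.3% of all genes higher and 14% lower, and 0 members passed an unadjusted p below 0.05, where 17.5% of genes were higher, or DESeq2's adjusted threshold, where 12.8% were. All 9 members were lower in F4/80-high tissue in kidney 1, with a median difference of -0.92 in log2(CPM + 1). In kidney 2, 7 of 9 were slightly higher (median 0.20), and in kidney 3 all 9 were higher (median 3.35). Cdkn1c had 6.94, 12.4 and 45.4 CPM by kidney in F4/80-high tissue, against 23.0, 11.8 and 0.978 CPM in F4/80-low tissue, an edgeR log2 fold change of 0.51 ± 1.26 (adjusted p 0.809). The 2 sets of kidneys overlapped, and kidneys 1 and 3 pointed opposite ways. Without kidney 3 edgeR put Nphs1 at -1.28 on the log2 scale (adjusted p 0.0289), the single member called, where 10.9% of genes were called lower. Without kidney 1, or without kidney 2, edgeR called 0 members. These comparisons share samples: each region type enters 2 of them.

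**Figure D3:**
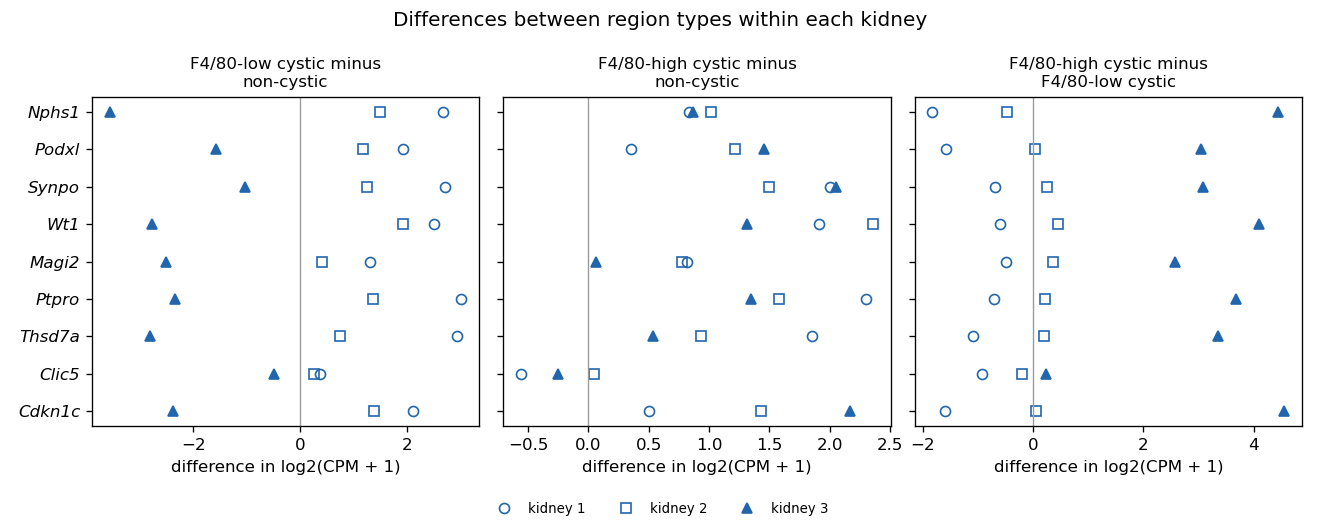
Difference in log2(CPM + 1) between region types within each kidney, for each member in the 3 comparisons, with one marker per kidney. In F4/80-low minus non-cystic tissue kidney 3 (filled triangles) lies below 0 and the other kidneys above it for all 9 genes, in F4/80-high minus non-cystic tissue 8 genes lie above 0 in every kidney, and in F4/80-high minus F4/80-low tissue kidney 3 lies far to the right for 8 genes and near 0 for Clic5.

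Whether a region difference itself differed between kidneys was tested against the spread between paired libraries, by the interaction of kidney and region type over 18 libraries in edgeR. None of the 9 members was called, with adjusted p-values of 0.280 (Magi2) to 0.713 (Clic5), where 0.298% of 14444 tested genes were called. At an unadjusted p below 0.05 there were 2 members, Magi2 and Ptpro, against 15% of all genes. The test did not separate the opposite signs of kidney 3 from the spread between paired libraries. With no filter on low counts the same test called 8 members, all but Clic5, and 6.45% of 27440 genes, with adjusted p-values of 4.47e-30 to 1.58e-10 for the 8. In that fit edgeR gave infinite weight to a trend of spread with level fitted over all genes, so the members' own spread between libraries did not enter. The quasi-dispersion, the spread beyond the fitted count model, was 0.801 for Nphs1 with no filter and 18.1 with the filter, so the 8 calls say nothing about the spread between paired libraries.

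The members moved together from library to library. Over the 18 libraries, the Pearson correlation of log2(CPM + 1) between a member and the mean of the others was 0.97 for Nphs1, 0.96 for Cdkn1c and Podxl, 0.95 for Thsd7a and Wt1, 0.92 for Magi2 and Ptpro, 0.84 for Synpo and 0.43 for Clic5. Among the 36 pairs of members the median correlation was 0.90, and the lowest pair without Clic5 was 0.78. After each value was centred on its region type mean, the median pair was at 0.91, and Clic5 was at 0.64 with the others. These are descriptions over libraries that share kidneys. Outside podocytes, Clic5 is known in endothelium and other epithelia, and its level stayed at 18.7 CPM or more in every library, also where Nphs1 had 1 count.

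Because of this common movement, each member was also set against Nphs1 in the same library. The log2 ratio of Synpo to Nphs1, with 1 CPM added to each, was 1.51, 2.32 and 4.28 (lowest, median and highest) in F4/80-high, 0.93, 1.88 and 3.51 in F4/80-low and 0.46, 1.04 and 2.84 in non-cystic libraries. For Wt1 the ratio was -0.78, 0.57 and 1.11 in F4/80-high, -1.05, -0.60 and 0 in F4/80-low and -1.35, -0.96 and -0.22 in non-cystic libraries. The median was highest in F4/80-high tissue for both genes, with ranges that overlapped. In the 4 libraries with 1 count of Nphs1, the ratio depends almost only on the other gene. The F4/80-high one, of kidney 2, had 12 counts of Wt1 and 20.5 CPM of Synpo. The F4/80-low one, of kidney 3, had 1 count of Wt1 and 5.22 CPM of Synpo. The 2 non-cystic ones had 0 counts of Wt1 and 1.34 and 7.39 CPM of Synpo. F4/80-low libraries of kidneys 3 and 2 with 2 and 5 counts of Nphs1 had 0 and 4 counts of Wt1. Their Synpo was at 12.7 and 18.7 CPM, the latter close to the F4/80-high value.

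When the Nphs1 level was entered as a covariate in the fit of 18 libraries, a choice made after these data were seen, edgeR called 4 of the other 8 members higher in F4/80-high than in non-cystic tissue, where 26.6% of all genes were called higher. At a given Nphs1 level the log2 fold change of Synpo was 1.67 ± 0.27 (adjusted p 5.40e-05), that of Wt1 1.95 ± 0.48 (adjusted p 0.00266), Ptpro 1.39 ± 0.29 (adjusted p 0.000647) and Cdkn1c 1.02 ± 0.31 (adjusted p 0.00936). Podxl, at 0.29 ± 0.20 (adjusted p 0.243), and Magi2, at 0.16 ± 0.21 (adjusted p 0.534), stayed close to Nphs1. Paired libraries share a kidney, so these p-values are too small. On the 9 sums, where the kidney is the unit, the same edgeR fit called Synpo (1.37 ± 0.20, adjusted p 0.000933) and Ptpro (1.13 ± 0.28, adjusted p 0.0105), with Wt1 at 1.02 ± 0.42 (adjusted p 0.0868) and Cdkn1c at 0.60 ± 0.32 (adjusted p 0.174), where 18.3% of genes were called higher. With the top F4/80-high library of kidney 3 left out of the 18, the 4 genes stayed called and Thsd7a (0.80, adjusted p 0.0450) and Clic5 (-0.56, adjusted p 0.0268) joined them.

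The same covariate fit of F4/80-high against F4/80-low tissue called Wt1 (1.59 ± 0.48, adjusted p 0.0131), Magi2 (0.69 ± 0.20, adjusted p 0.0118), Ptpro (0.81 ± 0.28, adjusted p 0.0265) and Cdkn1c (0.86 ± 0.30, adjusted p 0.0278) higher in edgeR over 18 libraries, with 19.5% of genes called higher. On the 9 sums only Wt1 was called, at 1.36 ± 0.38 (edgeR adjusted p 0.0302), with 10.3% of genes. In F4/80-low against non-cystic tissue edgeR called Synpo alone over 18 libraries, at 1.06 ± 0.27 (adjusted p 0.0306), with 4.2% of genes called higher, and 0 of 8 on the 9 sums, where 1.78% of genes were called higher and Synpo had 0.88 ± 0.20 (adjusted p 0.0641). Nephrin counts as low as 1 enter these fits, so the Nphs1 level of such libraries is known only within the limits given above.

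**Figure D4:**
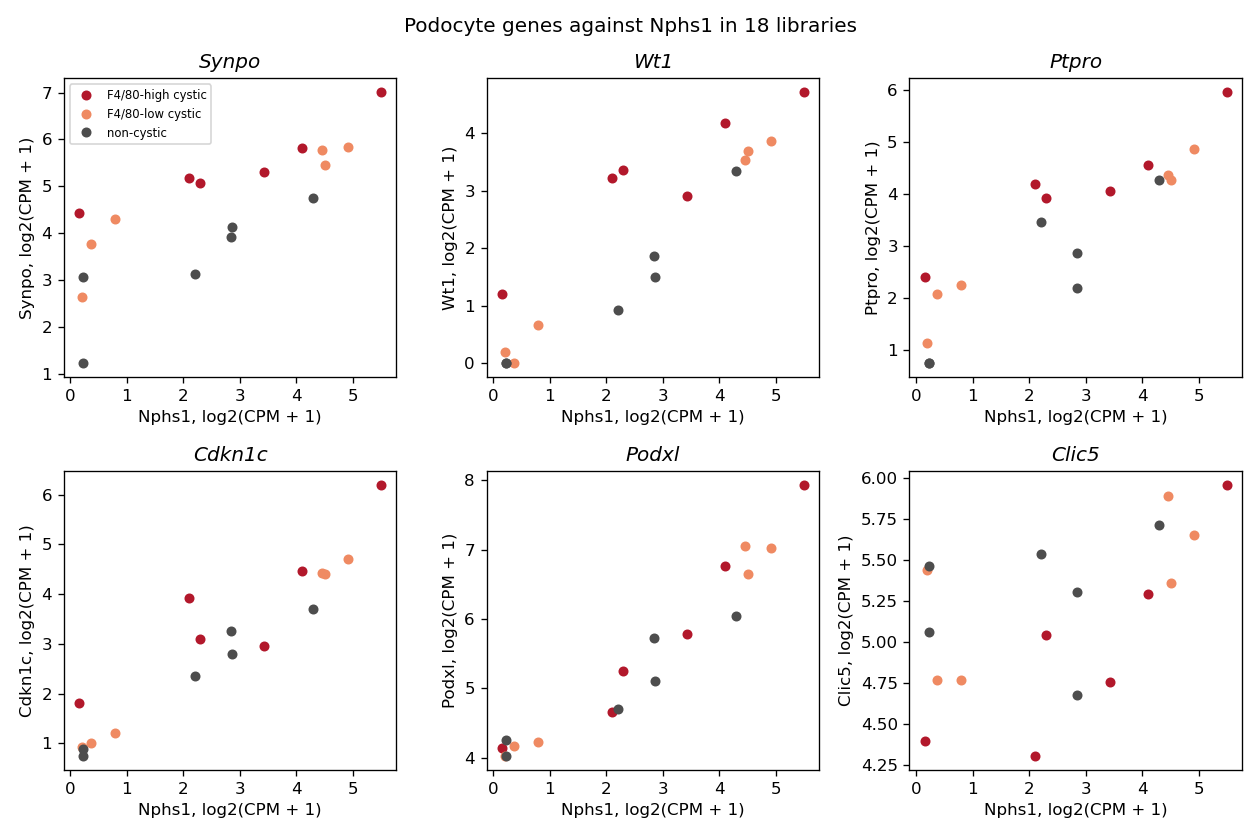
The members Synpo, Wt1, Ptpro, Cdkn1c, Podxl and Clic5 against Nphs1 in the 18 libraries, both as log2(CPM + 1), coloured by region type. For Synpo, Wt1 and Ptpro most F4/80-high libraries lie above the others at a like Nphs1 level, Podxl follows one line in all region types, and Clic5 is scattered.

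Calls among other genes known from podocytes were mixed. Of 22 such genes, 21 were tested. Of these, edgeR called 5 higher and 1 lower in F4/80-high against non-cystic tissue, with a median log2 fold change of 1.19, against 0.040 over all genes, and with 19.7% of all genes called higher and 19.5% lower. The share called higher was thus near that of all genes. Foxc2, a transcription factor of podocyte development, averaged 2.70 ± 1.04 CPM in F4/80-high and 0.469 ± 0.250 CPM in non-cystic tissue (2.50 ± 0.61, adjusted p 0.00933). Plekhh2, an actin-associated protein enriched in podocytes, averaged 12.9 ± 3.19 CPM in F4/80-high and 3.46 ± 2.02 CPM in non-cystic tissue (2.05 ± 0.37, adjusted p 0.00236), and was the one gene of the list called in F4/80-high against F4/80-low tissue (1.29 ± 0.36, adjusted p 0.0289). The other 3 were Kirrel, the nephrin relative NEPH1 (1.93 ± 0.63, adjusted p 0.0360), the guidance receptor Robo2 (1.54 ± 0.49, adjusted p 0.0405) and the intermediate filament gene Nes (2.12 ± 0.67, adjusted p 0.0465), which were named after their values were seen. Arhgap24, which encodes a Rac-inactivating protein, was lower, at 122.0 ± 23.2 CPM in F4/80-high and 258.3 ± 29.4 CPM in non-cystic tissue (-1.09 ± 0.18, adjusted p 0.00164), and its correlation with the mean podocyte profile was -0.07. That was the lowest of the 21, whose median was 0.77. Of the 5 called higher, Robo2 was at 0.82, Nes at 0.79, Plekhh2 at 0.67, Foxc2 at 0.63 and Kirrel at 0.51. Nebl had the highest correlation of the list, 0.98, and was not called. In F4/80-low against non-cystic tissue 0 of 21 were called, where 1.51% of all genes were called higher.

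Intracellular partners of the slit diaphragm, which many kidney cells share, were called higher for 4 of 9 tested genes in F4/80-high against non-cystic tissue in edgeR, where 19.7% of all genes were. They were Nck1, the adaptor that binds phosphorylated nephrin (1.15 ± 0.15, adjusted p 0.000504), Cd2ap, an adaptor between nephrin and actin (0.99 ± 0.16, adjusted p 0.00115), the junction scaffold Tjp1 (1.15 ± 0.26, adjusted p 0.00749) and the kinase Fyn (1.09 ± 0.29, adjusted p 0.0152), of which Fyn was named after its value was seen. Of 9 glomerular basement membrane genes, 4 were called higher and 2 lower, the lower share being near the 19.5% of all genes. Agrn, which encodes agrin, was higher by 1.66 ± 0.17 (adjusted p 0.000169), Nid1 by 1.96 ± 0.26 (adjusted p 0.000481) and Lamc1 by 1.14 ± 0.24 (adjusted p 0.00453). Lama5 was higher by 1.10 ± 0.27 (adjusted p 0.00933). Col4a3 and Col4a4, the collagen IV chains of the mature glomerular membrane that podocytes make, were lower, at -0.64 ± 0.19 (adjusted p 0.0230) and -0.89 ± 0.21 (adjusted p 0.00937). Lama5, Col4a3 and Col4a4 were named after their values were seen. Most of these genes are also expressed in tubules or stroma, and 563 exon bases of Col4a3 overlap a gene on the other strand.

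Genes of the other glomerular cells were followed because they share the tuft. The mean log2 level of each list correlated with the mean podocyte profile over 18 libraries at 0.76 for 10 glomerular endothelial genes, 0.66 for 8 genes of mesangial and renin cells and 0.50 for 6 genes of parietal epithelium. Ehd3, an endothelial gene enriched in glomeruli, reached 0.86, Itga8, the mesangial integrin, 0.80, and Plat, the tissue plasminogen activator of glomerular endothelium, 0.77. Ehd3 and Itga8 were the highest of their lists and were named after their values were seen. Single endothelial genes ran from -0.09 for Flt1 to 0.86, with a median of 0.41. Single mesangial and renin genes ran from 0.26 for Agtr1a to 0.80, with a median of 0.57. In contrast the mean level of the cortical proximal tubule list was at -0.41 and that of the S3 segment and thick ascending limb list at -0.49. Macrophage genes were at 0.33, and their 6 members fell between 0.31 and 0.39. After values were centred on region type means, the median macrophage gene was at 0.01, against 0.32 before. Centred medians were 0.49 for glomerular endothelial, 0.60 for mesangial and renin and 0.24 for parietal genes. They were -0.27 for the cortical proximal tubule list and -0.34 for the list of the S3 segment and thick ascending limb.

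Of 8 mesangial and renin genes, edgeR called 5 higher and 0 lower in F4/80-high against non-cystic tissue, where 19.7% of all genes were called higher and 19.5% lower. Serpine2, a secreted protease inhibitor, was at 427.2 ± 20.5 CPM in F4/80-high and 25.6 ± 4.60 CPM in non-cystic tissue (4.05 ± 0.35, adjusted p 7.08e-05), and Pdgfrb, the pericyte and mesangial receptor, at 61.6 ± 22.3 CPM in F4/80-high and 13.6 ± 1.59 CPM in non-cystic tissue (2.15 ± 0.27, adjusted p 0.000427). Cspg4, the pericyte proteoglycan NG2, was at 1.57 ± 0.26 (adjusted p 0.00152). Parietal epithelial genes were called higher in 4 of 6, with Cldn1 at 3.43 ± 0.37 (adjusted p 0.000278), Ncam1 at 4.41 ± 0.66 (adjusted p 0.00233) and Prom1 at 1.33 ± 0.26 (adjusted p 0.00362). Of the 10 glomerular endothelial genes 2 were higher, a share near that of all genes. They were Plat at 2.46 ± 0.60 (adjusted p 0.0181) and Pecam1 at 0.70 ± 0.21 (adjusted p 0.0264), and Flt1 was lower at -0.65 ± 0.20 (adjusted p 0.0253). Several of these genes, among them Serpine2, Pdgfrb, Cldn1 and Ncam1, are also known from stroma or tubules. How much of the podocyte differences goes with other glomerular cells was not tested.

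The dissected tissue also differed in tubule content. Genes of the cortical proximal tubule summed to 141.2, 1058 and 1382 CPM (lowest, median and highest) in F4/80-high, 2398, 4259 and 5367 CPM in F4/80-low and 4700, 5524 and 7565 CPM in non-cystic libraries. In edgeR 7 of 8 were called lower in F4/80-high than in non-cystic tissue, where 19.5% of all genes were. Log2 differences were -2.89 ± 0.44 for Lrp2, the endocytic receptor megalin (adjusted p 0.00108), -4.05 ± 0.58 for the organic anion transporter gene Slc22a6 (adjusted p 0.00127) and -3.56 ± 0.58 for the phosphate transporter gene Slc34a1 (adjusted p 0.00164). The part of tubule content in the podocyte values was not tested.

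Genes of the S3 segment and thick ascending limb, which reach into the outer medulla where there are no glomeruli, summed to 208.2, 481.1 and 1485 CPM in F4/80-high, 1920, 2787 and 5692 CPM in F4/80-low and 1222, 2163 and 2996 CPM in non-cystic libraries. Within pairs, the library with more of this list had less Nphs1 in 6 of 9 pairs. It had more in 3, which were non-cystic kidney 1 and F4/80-high kidneys 1 and 3. Among the 6, F4/80-low kidney 3 rested on 1 and 2 counts of Nphs1, which counting error cannot separate. The split of 6 to 3 was not tested. In F4/80-high tissue of kidney 2 the list stood at 1485 and 473.6 CPM beside 1 and 175 counts of Nphs1, and in non-cystic tissue of kidney 1 at 2996 and 2344 CPM beside 35 and 1 counts. Of the 6 genes, 3 were called lower in F4/80-high than in non-cystic tissue, where 19.5% of all genes were. Slc12a1, the sodium-potassium-chloride cotransporter of the thick limb, averaged 19.0 ± 10.3 CPM in F4/80-high and 81.4 ± 54.1 CPM in non-cystic tissue (edgeR adjusted p 0.00127), and the transporter gene Slc22a7 0.438 ± 0.442 CPM in F4/80-high and 14.7 ± 8.21 CPM in non-cystic tissue (edgeR adjusted p 0.0112). Umod, which encodes uromodulin, averaged 459.6 ± 283.3 CPM in F4/80-high and 1795 ± 1171 CPM in F4/80-low tissue (edgeR adjusted p 0.00849), and was not called in F4/80-high against non-cystic tissue (adjusted p 0.0530).

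Genes of the distal convoluted tubule summed to 60.1 to 798.5 CPM in F4/80-high, 28.6 to 1157 CPM in F4/80-low and 547.2 to 2205 CPM in non-cystic libraries, and 3 of 4 were called lower in F4/80-high than in non-cystic tissue, against 19.5% of all genes. They were Pvalb (edgeR adjusted p 0.000102), Slc12a3, the thiazide-sensitive cotransporter gene (adjusted p 0.00676), and Calb1 (adjusted p 0.0239). The 5 genes of the collecting duct list summed to 11.9 to 168.5 CPM in F4/80-high, 4.62 to 296.6 CPM in F4/80-low and 52.0 to 163.2 CPM in non-cystic libraries. Of the 4 tested, all but Upk1b, 1 was called higher in F4/80-high than in non-cystic tissue, a share near the 19.7% of all genes. It was the urea transporter gene Slc14a2, at 1.30 ± 0.81 CPM in F4/80-high and 0.055 ± 0.048 CPM in non-cystic tissue (edgeR adjusted p 0.00628), while the water channel gene Aqp2 (adjusted p 0.0795) and Fxyd4 (adjusted p 0.139) were not called.

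All 6 macrophage and all 5 fibroblast genes were called higher in F4/80-high than in non-cystic tissue, where 19.7% of all genes were. Log2 fold changes were 4.81 ± 0.25 for Ms4a7, 4.49 ± 0.27 for Aif1 and 4.42 ± 0.31 for Adgre1, the gene of F4/80, and 5.26 ± 0.33 for Col3a1, 4.95 ± 0.33 for Col1a1 and 2.56 ± 0.21 for Dcn, with edgeR adjusted p-values of 8.84e-06 to 4.66e-05. Fibroblast genes summed to 412.8 to 1127 CPM in F4/80-high, 107.0 to 363.2 CPM in F4/80-low and 28.8 to 59.7 CPM in non-cystic libraries, and the 3 ranges did not overlap.

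**Figure D5:**
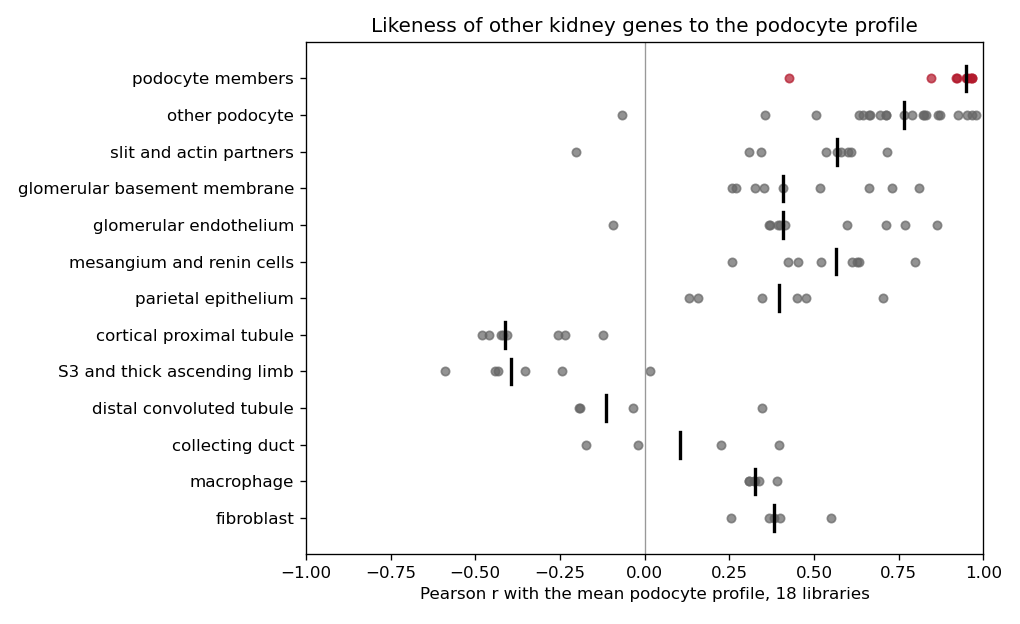
Pearson correlation of each gene's log2(CPM + 1) with the mean profile of the podocyte members over 18 libraries, by list; for a member, with the mean of the other members. Points are genes and black bars list medians, from 0.95 for the members and 0.77 for other podocyte genes to -0.41 for the cortical proximal tubule.

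Among all tested genes outside the set, those with the profile most like the members over the 18 libraries were ranked, where the median gene had a correlation of 0.07 and the top 1% began at 0.73. Myom2, the gene of a muscle M-band protein, had the highest, 0.99, with 0 to 55.9 CPM over libraries. Nebl, which encodes the actin-binding protein nebulette and was on the podocyte list, followed at 0.98. Wif1 and Sfrp2, which encode secreted inhibitors of WNT signalling, were at 0.96 and 0.93, and both were low, with medians of 0.680 and 1.22 CPM. Myl7, an atrial myosin light chain gene, was at 0.96, Clic3, a relative of Clic5, at 0.96, and the long non-coding RNAs Foxd2os and Gm26771 at 0.96 and 0.95. Sema3g, a secreted semaphorin on the podocyte list, was at 0.95, and Rab3b, a small GTPase of vesicle release, at 0.95. H2-Q6, a class I histocompatibility gene at 0.94, is uncertain, since reads can be shared with near-identical copies. Spearman correlations of these genes were 0.90 to 0.98, and none was called in any of the 3 comparisons in edgeR. The lowest adjusted p was 0.102, for H2-Q6 in F4/80-high against non-cystic tissue.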

How the data were processed

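The authors deposited raw read counts per gene for 18 libraries, with no normalization, per the values of the file. Per the submitters' processing notes, HTSeq 0.11.0, fastp 0.20.1 and FastQC 0.11.9 were used with build mm10 (GRCm38). Which aligner, annotation release and strand option they used was not given in the sources used here. Identifiers were matched to symbols with GENCODE vM21.

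The 9 podocyte genes and the 12 other gene lists were chosen with earlier results of these data known. Counts of the 2 libraries of one kidney and region type were summed into 1 sample. edgeR 4.0.16 (R 4.3.3) was run on these 9 sums with the kidney as a block, filterByExpr by region type, trimmed-mean-of-M-values factors and the robust quasi-likelihood test, which left 16034 genes, 99.8% of the counts and 4 residual degrees of freedom. The labels give the kidney of every library, so the region types are paired by kidney. The block takes out differences between kidneys, so p-values measure how much region differences vary over these 3 kidneys. A gene was called at a Benjamini-Hochberg adjusted p below 0.05 over all tested genes. Each SE is the size of the log2 fold change divided by the root of its F statistic. CPM are from the same scaling, and log2 levels used a pseudocount of 1 CPM. The scripts were tested on simulated data. The interaction of kidney and region type was tested on the 18 libraries. Named were all members, the 3 genes with the smallest p of each list and the 12 genes most like the members by correlation, and 1 gene that these rules select is not reported here. Alternatives were other scalings and filters, DESeq2 1.42.0, 18 libraries, no block, the 2 compared region types alone, 1 replicate label alone, each kidney or library left out, and Nphs1 as a covariate.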

Additional observations from a re-analysis of the deposited data

Results flagged for a closer look

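In each region type, the highest and lowest of the 6 libraries were checked for a gap to the nearest other library larger than Dixon's 95% critical share of the range. Of 27 groups (9 genes in 3 region types), 7 passed. The share of about 1 in 20 that chance alone flags holds for separate groups of normally spread values. Members moved together and CPM were used without a log, so that share is no measure for these 7, which are not separate results. All 7 were the highest library of their group and came from kidney 3. In the first F4/80-high library of kidney 3, Nphs1 had 44.3 CPM, Synpo 128.1 CPM, Ptpro 61.3 CPM and Cdkn1c 72.2 CPM. In the first non-cystic library of kidney 3, Nphs1 had 18.6 CPM, Wt1 9.17 CPM and Magi2 26.9 CPM. The same F4/80-high library had the highest sum of the 10 glomerular endothelial genes, 860.1 CPM, and the lowest sum of the cortical proximal tubule genes, 141.2 CPM. The part of either in the podocyte values was not tested.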

How the results depend on the processing

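No member was called in the 3 region comparisons or in the interaction under other scalings or, in the region comparisons, other filters. For F4/80-high against non-cystic tissue, DESeq2, the 18 libraries as separate samples and the 9 sums with no replicate block, that is unpaired, each called 1 member, Synpo. The 2 compared region types alone called 7. Leaving out each kidney or library gave 0 to 6 calls there, 6 without kidney 3 and 1 without the first non-cystic library of kidney 3. It gave 0 to 5 in F4/80-low against non-cystic tissue and 0 to 1 in F4/80-high against F4/80-low tissue, with 5 and 1 without kidney 3. Nphs1 as a covariate in 18 libraries called 1 member in F4/80-low against non-cystic, 4 in F4/80-high against non-cystic and 4 in F4/80-high against F4/80-low tissue, and on 9 sums 0, 2 and 1. With no filter the interaction test called 8, from a fit that used a trend of spread over all genes in place of each member's own. The other causes were not tested.

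Of 912 values of single members under the alternatives, 818 kept direction and side of the threshold, 35 passed it newly and 59 changed sign. Scaling by total counts moved the median of all genes by 0.12 in F4/80-low against non-cystic, 0.61 in F4/80-high against non-cystic and 0.48 in F4/80-high against F4/80-low tissue, and upper quartile factors moved the F4/80-high comparisons by 0.12. Under total counts the log2 fold change was 0.15 for Magi2 in F4/80-low against non-cystic tissue, 0.37 for Clic5 in F4/80-high against non-cystic tissue, and 0.13 for Nphs1 and 0.15 for Clic5 in F4/80-high against F4/80-low tissue. These are smaller than the shifts of the median, apart from Magi2. In F4/80-high against F4/80-low tissue Nphs1 was at 0.092 without the block, 0.30 with these region types alone and 0.96 with the libraries labelled replicate 2 alone. With those labelled replicate 1 alone, this comparison gave Podxl -0.63, Wt1 -0.63, Magi2 -0.18, Ptpro -0.50, Thsd7a -0.62 and Cdkn1c -0.59, and F4/80-low against non-cystic tissue gave Magi2 0.25 and Clic5 -0.0066. With Nphs1 as a covariate the last comparison gave Clic5 -0.055 over 18 libraries and Wt1 -0.34 and Thsd7a -0.0080 on 9 sums.

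Leaving out each kidney or library moved log2 fold changes across 0 for 16 values. In F4/80-low against non-cystic tissue they ran from -0.28 to 2.40 for Nphs1, -0.025 to 2.95 for Wt1, -1.01 to 0.95 for Magi2, -0.13 to 2.49 for Ptpro, -0.78 to 1.98 for Thsd7a and -0.13 to 0.32 for Clic5, with the lowest value without kidney 1 and the highest without kidney 3 each time. In F4/80-high against non-cystic tissue Nphs1 ran from -0.37 to 1.96. In F4/80-high against F4/80-low tissue they ran from -1.28 to 1.26 for Nphs1, -0.77 to 1.32 for Podxl, -0.28 to 1.55 for Synpo, -0.18 to 1.92 for Wt1, -0.086 to 1.34 for Magi2, -0.32 to 1.63 for Ptpro, -0.57 to 1.47 for Thsd7a, -0.66 to 0.00077 for Clic5 and -0.82 to 1.98 for Cdkn1c. Depth limits Nphs1 and Wt1 most, with 5 counts or fewer in 6 libraries each.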
